A study of Mus musculus with 24 samples.

Results

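Interferon-stimulated genes are the genes that a cell switches on when an interferon binds its receptor. The 39 read here, of 35817 genes summed from the deposited tables, were taken by name: 4 transcription factors of the interferon signal, 5 sensors of foreign nucleic acid, 17 IFIT, ISG15 and other antiviral proteins, 5 members of the OAS family and 8 GTPases that interferon gamma induces. The rule goes by name and sets no threshold on a measured value, but the members were chosen with earlier results of these data known. All 39 passed the filter on low counts in both cell types.

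The study asked what β-catenin, the effector of Wnt signalling, does to donor T cells in a mouse model of allogeneic transplantation, in which donor T cells can attack the host. RNA was sequenced from CD4+ or CD8+ T cells of Cat-Tg or wild-type (WT) donors, both on the C57BL/6 background, before transplantation (pre-tx) or on day 7 after it (post-tx), with 3 libraries in each of 8 groups. Pre-tx cells were sorted from fresh spleens. Post-tx cells were sorted by the donor marker H-2Kb from spleens of lethally irradiated BALB/c mice that had received WT bone marrow depleted of T cells together with CD4+ and CD8+ T cells mixed at 1:1. Cat-Tg mice are heterozygous for a human β-catenin that lacks its N-terminus and so escapes degradation, in a vector with the proximal Lck promoter, which is active from the thymus on. The lines were made in FVB mice and backcrossed. The marrow given with the T cells carries H-2Kb as well. Donors were matched for age and sex by the authors' account, and the WT data had also served earlier work of the group. Sample codes start with RH in WT and with MM in Cat-Tg libraries, so genotype and any difference in handling cannot be told apart.

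Type I interferons act through the receptor IFNAR and its kinases JAK1 and TYK2, which lead to the assembly of ISGF3. This complex holds STAT2 and IRF9 and binds the interferon-stimulated response element (ISRE) in the promoters of antiviral genes. Interferon gamma, the interferon that activated T cells and NK cells secrete, acts through IFNGR and the gamma-activated site (GAS) in promoters, and it induces the guanylate-binding proteins (GBPs) and immunity-related GTPases (IRGs). The 2 programs overlap, since IRF1, itself induced through a GAS, and ISGF3 can bind the same elements. Graft-versus-host disease is known for strong interferon gamma production by donor T cells.

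Promoter sequence (RefSeq, GRCm38.p6) was at hand for 30 of the 39 genes, and not for Dhx58, Zbp1, Usp18, Mx1, Rtp4, Parp14, Oas2, Gbp4 and Iigp1. The 250 bases before each start were searched on both strands for an ISRE-like motif (GAAA, any 2 bases, GAAA) and for a GAS (TTC, any 3 bases, GAA, which reads the same on both strands). The ISRE-like motif lay in 15 of 30 promoters, or 50.0%, against 3.46% of 27025 promoters of all genes. A GAS lay in 9 of 30, or 30.0%, against 8.13%. All 6 GTPase promoters held the ISRE-like motif and 3 of them a GAS, whereas of the other 24 promoters 9 (37.5%) held the first and 6 (25.0%) the second. A match is a description of these letters only. The last 140 bases before the start are shown for 4 antiviral genes, 3 GTPases and Irf1, read 5′ to 3′ on the strand of the gene, with motif matches in capitals, because ISRE and GAS elements are the usual landmarks of the type I and gamma programs.
Isg15, chr4:156200819-156200958, minus strand: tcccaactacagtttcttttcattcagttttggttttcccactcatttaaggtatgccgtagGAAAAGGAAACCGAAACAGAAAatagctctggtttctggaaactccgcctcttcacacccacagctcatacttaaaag
Ifit1, chr19:34640749-34640888, plus strand: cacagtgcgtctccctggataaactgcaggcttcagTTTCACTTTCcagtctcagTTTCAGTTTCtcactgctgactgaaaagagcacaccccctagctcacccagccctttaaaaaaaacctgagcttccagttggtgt
Oas3, chr5:120777660-120777799, minus strand: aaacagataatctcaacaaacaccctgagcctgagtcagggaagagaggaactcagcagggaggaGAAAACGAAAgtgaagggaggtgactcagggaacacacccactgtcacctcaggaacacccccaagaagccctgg
Rsad2, chr12:26456453-26456592, minus strand: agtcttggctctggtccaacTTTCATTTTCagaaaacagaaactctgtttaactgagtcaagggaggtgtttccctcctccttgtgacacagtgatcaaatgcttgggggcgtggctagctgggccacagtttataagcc
Gbp2, chr3:142620523-142620662, plus strand: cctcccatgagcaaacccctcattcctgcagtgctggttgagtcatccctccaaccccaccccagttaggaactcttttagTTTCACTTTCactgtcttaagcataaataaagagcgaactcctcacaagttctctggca
Gbp7, chr3:142530196-142530335, plus strand: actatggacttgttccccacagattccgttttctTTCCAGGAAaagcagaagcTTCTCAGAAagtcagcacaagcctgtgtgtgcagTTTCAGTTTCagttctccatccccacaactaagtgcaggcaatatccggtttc
Irgm1, chr11:48871421-48871560, minus strand: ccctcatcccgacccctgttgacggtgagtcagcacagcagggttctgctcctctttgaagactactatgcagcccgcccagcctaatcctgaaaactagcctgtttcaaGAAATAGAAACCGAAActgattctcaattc
Irf1, chr11:53769874-53770013, plus strand: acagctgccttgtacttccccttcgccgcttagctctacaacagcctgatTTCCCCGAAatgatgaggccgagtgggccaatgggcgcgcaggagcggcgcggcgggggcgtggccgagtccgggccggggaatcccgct
Isg15 carried 3 ISRE-like matches that overlap between 78 and 57 bases before the start, and Irgm1 carried 2 between 30 and 15 bases. In Ifit1 the 2 matches were apart, at 104 to 95 and 85 to 76 bases. Gbp7 had a GAS at 106 to 98 and at 87 to 79 bases ahead of an ISRE-like match at 53 to 44 bases, and no GAS match overlapped an ISRE-like one in it. Irf1 had only a GAS, at 90 to 82 bases.

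The 24 libraries held between 11135713 and 50519825 estimated counts, with a median of 27062440. Levels are given as CPM, counts relative to the library total, after scaling by trimmed mean of M values (TMM) over all 24 libraries. Within a cell type, fold changes come from fits scaled over its 12 libraries alone, so they can differ from ratios of these CPM values. On the CPM scale, 3 counts were worth between 0.0517 and 0.289 CPM. Some libraries stood apart from their labels. Cd8a made up 50.0% to 63.9% of Cd4 plus Cd8a in the libraries with the label WT CD8 pre-tx and 52.4% to 65.4% in those with the label WT CD4 pre-tx, against 99.0% to 99.9% in the other CD8 groups and 0.0895% to 3.39% in the other CD4 groups. All 12 B cell markers were detected there and summed to between 10989 and 14914 CPM, against 499 to 3315 CPM in the other 18 libraries, while 12 T cell markers summed to 1956 to 3382 CPM against 5267 to 16374. NK cell markers (5 genes) summed to 336 to 819 CPM in those 6 libraries and to 22 to 473 elsewhere, with Klra8 at 0 in WT CD4 post-tx. The part of these cells in any difference between post-tx and pre-tx in WT was not tested, and a WT post-tx minus pre-tx value without these libraries cannot be had. Replicate 2 of WT CD8 post-tx also stood apart, with a TMM factor of 0.5806 and values far from both other replicates in many of the 39 genes, such as Ifih1 at 1.47 CPM against 18.8 and 8.38 CPM. Mouse Ctnnb1 ranged from 8.09 to 174 CPM with overlapping genotypes. It does not check the labels, since the transgene is human. In bulk RNA, fewer cells of a type and less RNA per cell cannot be told apart. The plot of marker sums shows these libraries.

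**Figure D1:**
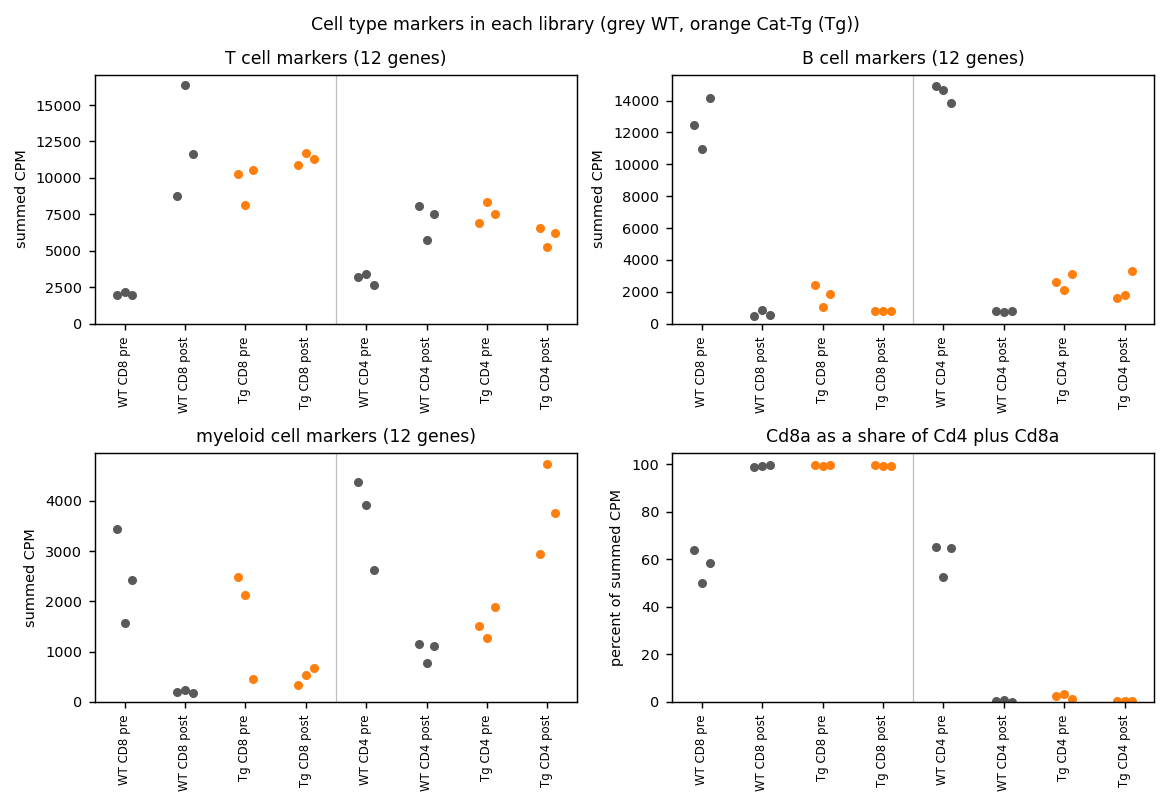
Summed CPM of marker genes of T cells, B cells and myeloid cells and the share of Cd8a in Cd4 plus Cd8a, in each of the 24 libraries, with 3 points a group (grey for WT, orange for Cat-Tg) and axes from 0. The 6 libraries with a WT pre-tx label sit at 10989 to 14914 CPM of B cell markers and all other libraries at 3315 or below.

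Per length, the most abundant of the 39 transcripts over the 24 libraries was Ifitm3, with a median of 332 TPM, which are counts per transcript length (range 9.08 to 1583). Irf1 followed at 190 TPM, with a narrow range of 77.6 to 381, and then Ifi35 at 140 and Bst2 at 122. Igtp, at 99.5 TPM, led the GTPases, and Oas1a, at 36.3, led the OAS family. Oas2 at 1.20 and Ifi44 at 1.42 TPM were the lowest. The heat map of all 39 genes gives each gene relative to its own mean.

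**Figure D2:**
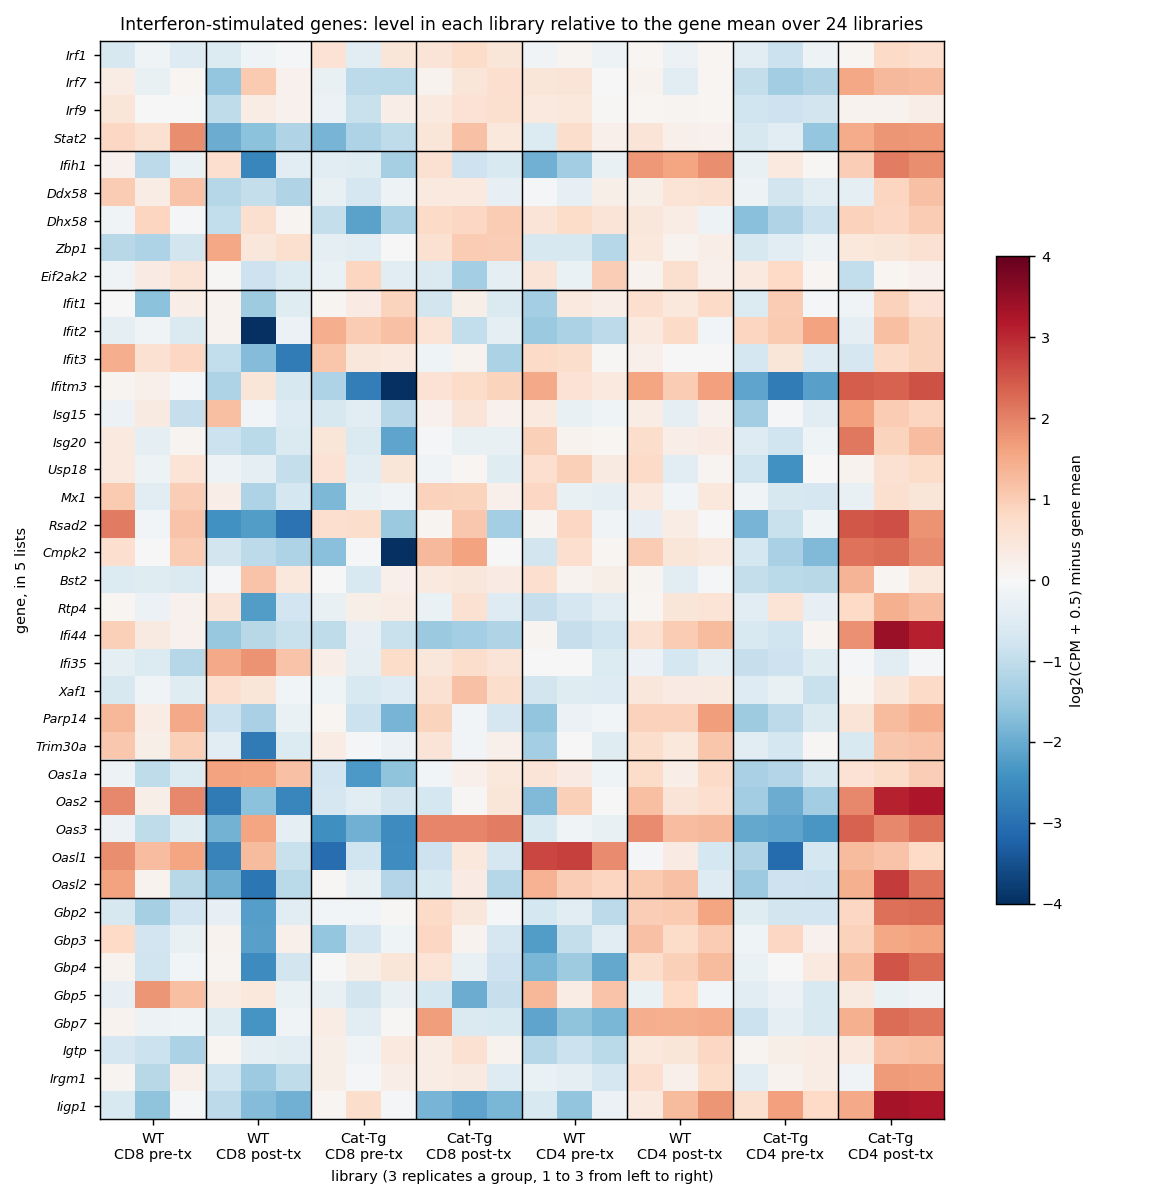
Each gene's log2(CPM + 0.5) minus its mean over the 24 libraries, with genes in rows by role and libraries in columns by group. Ifitm3 and Oas3 are low in the 6 Cat-Tg pre-tx libraries and high in Cat-Tg CD4 post-tx, and most GTPases are high in the CD4 post-tx libraries.

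In Cat-Tg CD4+ T cells all 5 OAS genes, 8 of 17 antiviral genes and 4 of 8 GTPases rose from pre-tx to post-tx. A gene was called a differentially expressed gene (DEG) where edgeR's quasi-likelihood test gave a Benjamini-Hochberg adjusted p of at most 0.05 over all genes tested and a change of at least 2 fold, with 3 libraries a group. By this rule 21 of the 39 rose, where 13.2% of all 17227 genes tested did, and 0 fell, where 27.7% of all genes did (1 member at an unadjusted p under 0.05, and 0 DEGs by limma-voom and by DESeq2). The median log2 fold change was 1.47 over the members and -0.38 over all genes tested. The OAS family had a median of 3.07. The antiviral genes that rose were Ifitm3, Isg15, Isg20, Rsad2, Cmpk2, Bst2, Ifi44 and Parp14. The rest were Irf7 and Stat2 among the 4 transcription factors, Ifih1 and Dhx58 among the 5 sensors, and 4 of 8 GTPases (Gbp2, Gbp4, Gbp7 and Iigp1). Summed myeloid markers (12 of 12 detected) were 1276 to 1880 CPM in Cat-Tg CD4 pre-tx and 2953 to 4731 CPM post-tx, and 6 red cell markers went from 1331 to 2111 CPM to 4461 to 26860 CPM. Plasmacytoid dendritic cells are a main source of type I interferon. The 4 genes taken as their markers (Siglech, Ccr9, Klk1 and Clec10a) summed to 24 to 46 CPM pre-tx and 65 to 114 CPM post-tx. Whether these 4 genes read that cell type alone was not checked. NK cell markers were 210 to 326 and 347 to 473 CPM. Their part in the result was not tested. Calls were refitted without each library in turn and in up to 9 other ways at the same 2 fold threshold, and ranges in brackets are log2 fold changes over the fits that left out 1 library. Among these, Irf7, Stat2, Dhx58, Ifitm3, Isg15, Isg20, Rsad2, Cmpk2, Ifi44, Parp14, Oas1a, Oas2, Oas3, Oasl1, Oasl2, Gbp2, Gbp4 and Gbp7 held in all 6 fits that left out 1 library and in every other fit. Ifih1 lost its call without Cat-Tg CD4 pre-tx replicate 1 or Cat-Tg CD4 post-tx replicate 2 (1.11 to 1.59). Bst2 lost its call without Cat-Tg CD4 post-tx replicate 1 (0.97 to 1.71). Iigp1 lost its call without Cat-Tg CD4 pre-tx replicate 1 or 3 or Cat-Tg CD4 post-tx replicate 2 or 3 (1.19 to 1.85).

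In WT CD4, against the libraries with the label WT CD4 pre-tx, 7 of the 8 GTPases rose post-tx. They were among 16 of the 39 members that rose, with a background of 13.1% of all genes, and 1 member, Oasl1, fell, with a background of 9.02%. The 7 GTPases were Gbp2, Gbp3, Gbp4, Gbp7, Igtp, Irgm1 and Iigp1, with a median log2 fold change of 2.10 over the 8, against 0.24 over the other 31 members and -0.14 over all genes. The median over all 39 was 0.66. Of the antiviral genes, Ifit2, Rtp4, Ifi44, Xaf1, Parp14 and Trim30a rose, and of the sensors Ifih1 and Zbp1. In the OAS family 1 of 5 rose (Oas3). No transcription factor was a DEG by edgeR, limma-voom or DESeq2, with 0 at an unadjusted p under 0.05. Summed B cell markers fell from 13841 to 14914 CPM in the libraries with the label WT CD4 pre-tx to 707 to 799 CPM post-tx, and myeloid markers from 2632 to 4378 to 779 to 1157 CPM. Red cell markers were 9259 to 26876 CPM pre-tx and 646 to 1103 post-tx, NK cell markers 465 to 819 and 77 to 126 CPM, and plasmacytoid dendritic cell markers 57 to 95 and 47 to 65 CPM. Of these, 6 of 6 red cell and 4 of 5 NK cell markers fell, and of the last list 3 fell and 1 rose, with Klk1 at 3 counts or below post-tx. Their part was not tested. Among these, Ifih1, Parp14, Oas3, Gbp2, Gbp3, Gbp4, Gbp7, Igtp and Iigp1 held in all 6 fits that left out 1 library and in every other fit. Zbp1 lost its call without WT CD4 pre-tx replicate 3 (0.89 to 1.29). Ifit2 lost its call with all 24 libraries in 1 fit (1.62 to 2.13). Rtp4 lost its call without WT CD4 pre-tx replicate 1 and with all 24 libraries in 1 fit (1.04 to 1.33). Ifi44 lost its call without WT CD4 pre-tx replicate 2 or 3 or WT CD4 post-tx replicate 3 (1.36 to 2.09). Xaf1 lost its call without WT CD4 pre-tx replicate 1 or 3 and with DESeq2, with DESeq2 size factors, with counts from length-scaled TPM or with all 24 libraries in 1 fit (0.96 to 1.15). Trim30a lost its call without WT CD4 pre-tx replicate 1 or 3 or WT CD4 post-tx replicate 1 or 3 and with all 24 libraries in 1 fit (1.07 to 1.77). Oasl1 lost its call without WT CD4 post-tx replicate 3 and with all 24 libraries in 1 fit (-2.93 to -2.24). Irgm1 lost its call without WT CD4 pre-tx replicate 1, 2 or 3 or WT CD4 post-tx replicate 1 or 3 and with counts from length-scaled TPM or with all 24 libraries in 1 fit (0.83 to 1.23).

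The 2 genotypes' CD4 comparisons share no library. They had 8 risen members in common, which were Ifih1, Ifi44, Parp14, Oas3, Gbp2, Gbp4, Gbp7 and Iigp1, or 50.0% of the 16 in WT and 38.1% of the 21 in Cat-Tg. The overlap over all genes tested was not taken, so these shares cannot say whether it is particular to the members. Oasl1 fell in WT, measured from the libraries labelled WT CD4 pre-tx that stood apart from their label, and rose in Cat-Tg CD4+ T cells.

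In the CD8 libraries, Stat2 rose post-tx in Cat-Tg and fell in WT, where the pre-tx libraries stood apart from their label. In Cat-Tg CD8+ T cells 7 of 39 members rose (Stat2, Dhx58, Zbp1, Ifitm3, Xaf1, Oas1a and Oas3), against 8.72% of all 15960 genes tested, and Iigp1 fell, against 5.23%. The median log2 fold change was 0.51 over the members and -0.26 over all genes. No GTPase rose by edgeR (0 also at an unadjusted p under 0.05, and 0 by limma-voom and DESeq2). Myeloid markers summed to 462 to 2491 CPM pre-tx and 332 to 669 CPM post-tx, and B cell markers to 1023 to 2420 and 768 to 797 CPM. Red cell markers were 1743 to 12271 and 2931 to 4411 CPM, and plasmacytoid dendritic cell markers 69 to 87 and 8 to 15 CPM. Their part was not tested. Among these, Dhx58, Ifitm3 and Oas3 held in all 6 fits that left out 1 library and in every other fit. Stat2 lost its call without Cat-Tg CD8 pre-tx replicate 1 or Cat-Tg CD8 post-tx replicate 2 (1.84 to 2.23). Zbp1 lost its call without any 1 of the 6 libraries and with DESeq2 size factors, with no filter on low counts, with counts from length-scaled TPM, with the replicate block or without the WT pre-tx libraries (1.05 to 1.28). Xaf1 lost its call without Cat-Tg CD8 pre-tx replicate 1, 2 or 3 or Cat-Tg CD8 post-tx replicate 1 or 2 and with no filter on low counts or without the WT pre-tx libraries (1.12 to 1.39). Oas1a lost its call without Cat-Tg CD8 pre-tx replicate 2 or 3 or Cat-Tg CD8 post-tx replicate 2 (1.33 to 2.12). Iigp1 lost its call without Cat-Tg CD8 pre-tx replicate 2 or Cat-Tg CD8 post-tx replicate 1 or 2 and with no filter on low counts (-2.53 to -2.06).

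In WT CD8, post-tx libraries were set against those with the label WT CD8 pre-tx, which stood apart from it. There 4 members rose (Zbp1, Bst2, Ifi35 and Oas1a), against 13.1% of all genes, and 8 fell (Stat2, Ddx58, Ifit3, Rsad2, Parp14, Trim30a, Oas2 and Oasl2), against 10.4%. The medians were -0.39 over the members and -0.23 over all genes. None of the 8 GTPases was a DEG by edgeR, limma-voom or DESeq2, and 1 was higher at an unadjusted p under 0.05. B cell markers fell from 10989 to 14165 CPM to 499 to 826 CPM in this comparison, and myeloid markers from 1571 to 3436 to 175 to 237 CPM. Red cell markers were 3331 to 12338 CPM pre-tx and 252 to 2057 post-tx, NK cell markers 336 to 398 and 22 to 55 CPM, and plasmacytoid dendritic cell markers 96 to 127 and 6 to 16 CPM. Their part was not tested. Zbp1 and Oas1a rose in both genotypes, which are 50.0% of the 4 in WT and 28.6% of the 7 in Cat-Tg, again without an overlap over all genes to set beside them. Among these, Stat2, Ddx58, Zbp1, Ifit3, Rsad2, Ifi35, Oas1a and Oas2 held in all 6 fits that left out 1 library and in every other fit. Bst2 lost its call without WT CD8 pre-tx replicate 1, 2 or 3 or WT CD8 post-tx replicate 2 or 3 and with no filter on low counts, with counts from length-scaled TPM, with the replicate block or with only the 6 libraries compared (0.65 to 1.27). Parp14 lost its call without WT CD8 pre-tx replicate 1 or 3 or WT CD8 post-tx replicate 2 and with only the 6 libraries compared (-2.38 to -1.59). Trim30a lost its call without WT CD8 pre-tx replicate 1 or 3 and with only the 6 libraries compared (-2.20 to -1.38). Oasl2 lost its call without WT CD8 pre-tx replicate 1 or WT CD8 post-tx replicate 1 or 2 and with limma-voom, with the replicate block or with only the 6 libraries compared (-3.48 to -1.47).

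**Figure D3:**
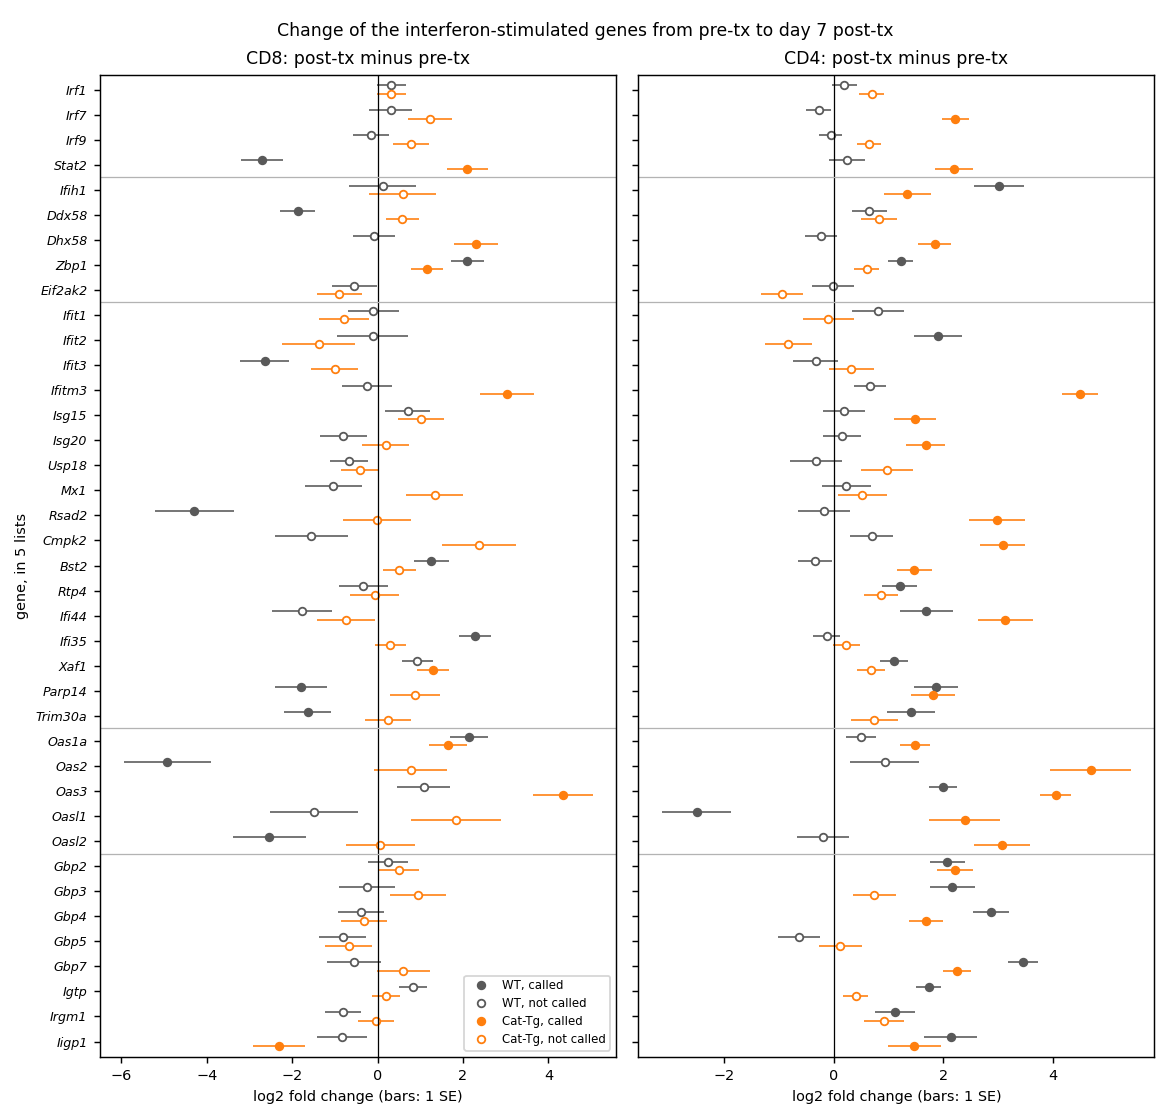
Post-tx minus pre-tx log2 fold changes (x axis, bars 1 standard error) of the 39 genes (y axis, by role) in CD8 and CD4, in grey for WT and orange for Cat-Tg, with filled points for DEGs. In CD4 all 5 OAS genes lie further right in Cat-Tg than in WT, from Oas3 at 4.05 and 1.99 to Oasl1 at 2.39 and -2.51, and 6 of the 8 GTPases lie further left.

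Before transplantation, 4 of 5 OAS genes and 3 of 17 antiviral genes were lower, and 5 of 8 GTPases higher, in Cat-Tg CD4+ T cells than in the libraries with the label WT CD4 pre-tx. Of the 39, 7 were higher (Ifih1, Ifit2, Gbp3, Gbp4, Gbp7, Igtp and Iigp1), with a background of 12.3%, and 10 lower (Irf7, Dhx58, Ifitm3, Cmpk2, Bst2, Oas1a, Oas3, Oasl1, Oasl2 and Gbp5), with a background of 5.91%. The median was -1.91 over the OAS family, 1.48 over the GTPases, -0.33 over all 39 and 0.03 over all genes. With counts from length-scaled TPM the split was 6 higher and 15 lower. B cell markers were 2130 to 3095 CPM in Cat-Tg and 13841 to 14914 CPM in the WT libraries, red cell markers 1331 to 2111 and 9259 to 26876 CPM, and plasmacytoid dendritic cell markers 24 to 46 and 57 to 95 CPM. Their part was not tested. Among these, Irf7, Dhx58, Ifit2, Ifitm3, Bst2, Oas3, Oasl1, Oasl2, Gbp4, Igtp and Iigp1 held in all 6 fits that left out 1 library and in every other fit. Ifih1 lost its call without Cat-Tg CD4 pre-tx replicate 2 or 3 or WT CD4 pre-tx replicate 1 or 2 and with DESeq2 size factors, with no filter on low counts, with counts from length-scaled TPM, with all 24 libraries in 1 fit or with only the 6 libraries compared (0.86 to 1.85). Cmpk2 lost its call without Cat-Tg CD4 pre-tx replicate 2 or 3 or WT CD4 pre-tx replicate 2 and with limma-voom, with all 24 libraries in 1 fit or with only the 6 libraries compared (-1.69 to -0.75). Oas1a lost its call without Cat-Tg CD4 pre-tx replicate 1 or 2 or WT CD4 pre-tx replicate 2 (-1.44 to -0.88). Gbp3 lost its call without Cat-Tg CD4 pre-tx replicate 2 or WT CD4 pre-tx replicate 1 and with all 24 libraries in 1 fit or with only the 6 libraries compared (0.99 to 1.83). Gbp5 lost its call without Cat-Tg CD4 pre-tx replicate 1, 2 or 3 or WT CD4 pre-tx replicate 1 and with limma-voom or with all 24 libraries in 1 fit (-1.46 to -1.13). Gbp7 lost its call with all 24 libraries in 1 fit (1.11 to 1.63).

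In CD8 pre-tx, Igtp was higher in Cat-Tg, against 4.49% of all genes, and Stat2, Ifitm3 and Oasl1 were lower, against 4.48%. The medians were -0.45 over the members and -0.07 over all genes. Length-scaled TPM gave 0 higher and 6 lower. B cell markers were 1023 to 2420 CPM in Cat-Tg and 10989 to 14165 CPM in the libraries with the label WT CD8 pre-tx, NK cell markers 33 to 81 and 336 to 398 CPM, and plasmacytoid dendritic cell markers 69 to 87 and 96 to 127 CPM. Their part was not tested. Stat2 held in all 6 fits that left out 1 library and in every other fit. Ifitm3 lost its call without Cat-Tg CD8 pre-tx replicate 2 or 3 or WT CD8 pre-tx replicate 1 or 2 (-3.45 to -1.98). Oasl1 lost its call without Cat-Tg CD8 pre-tx replicate 1 or 3 or WT CD8 pre-tx replicate 1, 2 or 3 and with DESeq2 size factors (-5.44 to -3.28). Igtp lost its call without any 1 of the 6 libraries and with no filter on low counts, with counts from length-scaled TPM or with the replicate block (0.95 to 1.28).

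Post-tx, edgeR called few of these genes between the genotypes, and DESeq2 called more. In CD4, 4 members were higher in Cat-Tg by edgeR (Irf7, Stat2, Rsad2 and Ifi44), against 3.62% of all genes. At an unadjusted p under 0.05, 12 members were higher, and limma-voom called 8 and DESeq2 9. By edgeR 0 were lower, against 6.40% (0 at an unadjusted p under 0.05 and 0 by limma-voom and DESeq2). The medians were 0.33 over the members and -0.19 over all genes. No WT pre-tx library enters this difference except through the spread and the scaling, and without those libraries 7 members were DEGs. Myeloid markers were 2953 to 4731 CPM in Cat-Tg and 779 to 1157 CPM in WT, B cell markers 1608 to 3315 and 707 to 799 CPM, and NK cell markers 347 to 473 and 77 to 126 CPM. All 6 red cell markers were higher in Cat-Tg (4461 to 26860 against 646 to 1103 CPM, median log2 fold change 4.27), and of 4 plasmacytoid dendritic cell markers 2 were higher. The sums of these 4 met at 65 CPM (65 to 114 in Cat-Tg against 47 to 65 in WT). Their median log2 fold change of 3.45 includes genes with few reads, with Klk1 at 3 counts or below in WT. The part of all these cells in the 4 DEGs was not tested. Irf7 lost its call with all 24 libraries in 1 fit (1.07 to 1.31). Stat2 lost its call without Cat-Tg CD4 post-tx replicate 2 or 3 or WT CD4 post-tx replicate 1, 2 or 3 and with all 24 libraries in 1 fit (1.05 to 1.28). Rsad2 lost its call without WT CD4 post-tx replicate 1 and with all 24 libraries in 1 fit (2.0 to 2.38). Ifi44 lost its call without Cat-Tg CD4 post-tx replicate 2 or 3 or WT CD4 post-tx replicate 1 or 2 (1.43 to 2.12).

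In CD8 post-tx, Stat2 alone was higher in Cat-Tg by edgeR, against 1.10% of all genes (10 members at an unadjusted p under 0.05, 1 by limma-voom and 4 by DESeq2). By edgeR 0 members were lower, against 0.570% (3 at an unadjusted p under 0.05, 0 by limma-voom and 2 by DESeq2). The medians were 0.54 over the members and -0.18 over all genes. Myeloid markers were 332 to 669 CPM in Cat-Tg and 175 to 237 CPM in WT, and red cell markers 2931 to 4411 and 252 to 2057 CPM, and the part of these cells was not tested. Stat2 lost its call without Cat-Tg CD8 post-tx replicate 1 or 2 and with only the 6 libraries compared (1.99 to 2.67).

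Whether the post-tx minus pre-tx change differed between genotypes was tested as an interaction. In CD4 it was more positive in Cat-Tg for 12 members, with a background of 7.20%, and more negative for 3 (Ifit2, Gbp7 and Igtp), with a background of 14.0%. With counts from length-scaled TPM these were 15 and 1. The 12 held 4 of the 5 OAS genes, Irf7, Stat2, Dhx58, Ifitm3, Isg20, Rsad2, Cmpk2 and Bst2. The median was 3.26 over the OAS family, -0.92 over the GTPases, 0.51 over the 39 and -0.55 over all genes. Among these, Irf7, Stat2, Dhx58, Ifitm3, Rsad2, Bst2, Oas2, Oas3, Oasl1 and Oasl2 held in all 12 fits that left out 1 library and in every other fit. Ifit2 lost its call with all 24 libraries in 1 fit (-3.08 to -2.17). Isg20 lost its call without Cat-Tg CD4 pre-tx replicate 1 or 2, Cat-Tg CD4 post-tx replicate 1 or WT CD4 post-tx replicate 2 or 3 and with limma-voom or with all 24 libraries in 1 fit (1.08 to 2.15). Cmpk2 lost its call with all 24 libraries in 1 fit (1.98 to 3.11). Gbp7 lost its call without Cat-Tg CD4 pre-tx replicate 2, WT CD4 pre-tx replicate 1 or 3 or WT CD4 post-tx replicate 2 and with limma-voom, with DESeq2, with DESeq2 size factors, with no filter on low counts, with counts from length-scaled TPM or with all 24 libraries in 1 fit (-1.36 to -0.64). Igtp lost its call without WT CD4 pre-tx replicate 1 or 3 and with no filter on low counts, with counts from length-scaled TPM or with all 24 libraries in 1 fit (-1.44 to -0.84).

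In CD8 the interaction was positive for 7 members (Stat2, Ddx58, Dhx58, Ifitm3, Rsad2, Oas2 and Oas3), with a background of 5.94%, and negative for Ifi35, with a background of 4.77%. The medians were 0.92 over the members and -0.20 over all genes. No GTPase was among them by edgeR, limma-voom or DESeq2, and 0 passed an unadjusted p under 0.05. Each interaction rests on the WT pre-tx libraries described above. Among these, Stat2, Ddx58, Ifitm3 and Oas2 held in all 12 fits that left out 1 library and in every other fit. Dhx58 lost its call without Cat-Tg CD8 pre-tx replicate 2 or 3, Cat-Tg CD8 post-tx replicate 1 or 2 or WT CD8 pre-tx replicate 1, 2 or 3 and with DESeq2 size factors or with the replicate block (2.0 to 3.01). Rsad2 lost its call without Cat-Tg CD8 post-tx replicate 1 or 2, WT CD8 pre-tx replicate 1 or WT CD8 post-tx replicate 3 and with limma-voom (3.58 to 4.88). Ifi35 lost its call without Cat-Tg CD8 pre-tx replicate 1 or 3, Cat-Tg CD8 post-tx replicate 1, 2 or 3 or WT CD8 pre-tx replicate 3 and with no filter on low counts (-2.17 to -1.48). Oas3 lost its call without Cat-Tg CD8 post-tx replicate 1 or 2 or WT CD8 pre-tx replicate 1 (2.99 to 4.78).

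Between the 2 cell types, post-tx, most members that differed were lower in CD8+ than in CD4+ T cells. In WT, 16 of 39 were lower in CD8, against 7.09% of 19076 genes tested, and Ifi35 was higher, against 5.71%. The 16 were Stat2, Ifih1, Ddx58, Ifit3, Ifitm3, Rsad2, Ifi44, Parp14, Trim30a, Oas2, Oasl2, Gbp2, Gbp4, Gbp7, Irgm1 and Iigp1. The medians were -1.11 over the members and -0.03 over all genes. Myeloid markers summed to 175 to 237 CPM in WT CD8 post-tx and 779 to 1157 CPM in WT CD4 post-tx. Among these, Stat2, Rsad2, Ifi44, Ifi35, Oas2 and Iigp1 held in all 6 fits that left out 1 library and in every other fit. Ifih1 lost its call without WT CD8 post-tx replicate 2 or 3 or WT CD4 post-tx replicate 1, 2 or 3 and with only the 6 libraries compared (-2.89 to -1.31). Ddx58 lost its call with only the 6 libraries compared (-1.70 to -1.41). Ifit3 lost its call without WT CD8 post-tx replicate 2 or 3 and with only the 6 libraries compared (-2.17 to -1.38). Ifitm3 lost its call without WT CD8 post-tx replicate 1 or 3 or WT CD4 post-tx replicate 1 or 3 and with only the 6 libraries compared (-2.18 to -1.24). Parp14 lost its call without WT CD8 post-tx replicate 2 or WT CD4 post-tx replicate 3 (-2.25 to -1.60). Trim30a lost its call without WT CD8 post-tx replicate 2 or 3 or WT CD4 post-tx replicate 1 or 3 and with only the 6 libraries compared (-1.97 to -1.06). Oasl2 lost its call without WT CD8 post-tx replicate 2 and with only the 6 libraries compared (-3.43 to -2.23). Gbp2 lost its call with only the 6 libraries compared (-2.17 to -1.39). Gbp4 lost its call without WT CD8 post-tx replicate 2 or 3 or WT CD4 post-tx replicate 3 and with only the 6 libraries compared (-2.24 to -1.02). Gbp7 lost its call with only the 6 libraries compared (-2.57 to -1.59). Irgm1 lost its call without WT CD8 post-tx replicate 2 and with only the 6 libraries compared (-1.78 to -1.26).

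In Cat-Tg, 8 were lower in CD8 (Ifitm3, Isg20, Ifi44, Oas2, Oasl2, Gbp2, Gbp4 and Iigp1), against 4.50%, and 0 were higher by edgeR, against 1.34% (1 at an unadjusted p under 0.05, and 0 by limma-voom and DESeq2). The medians were -0.94 over the members and 0.06 over all genes. Myeloid markers were 332 to 669 CPM in Cat-Tg CD8 post-tx and 2953 to 4731 CPM in Cat-Tg CD4 post-tx. Their part was not tested in either genotype. Among these, Ifi44 and Iigp1 held in all 6 fits that left out 1 library and in every other fit. Ifitm3 lost its call without any 1 of the 6 libraries and with DESeq2 size factors or with no filter on low counts (-1.76 to -1.50). Isg20 lost its call without Cat-Tg CD8 post-tx replicate 1, 2 or 3 or Cat-Tg CD4 post-tx replicate 1 and with no filter on low counts (-1.97 to -1.13). Oas2 lost its call without Cat-Tg CD8 post-tx replicate 1, 2 or 3 or Cat-Tg CD4 post-tx replicate 2 or 3 (-3.27 to -2.69). Oasl2 lost its call without Cat-Tg CD8 post-tx replicate 1 or 3 or Cat-Tg CD4 post-tx replicate 2 (-3.02 to -2.24). Gbp2 lost its call without Cat-Tg CD8 post-tx replicate 2 or 3 or Cat-Tg CD4 post-tx replicate 2 or 3 and with no filter on low counts (-1.67 to -1.18). Gbp4 lost its call without Cat-Tg CD8 post-tx replicate 2 or 3 (-2.63 to -1.82).

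Among the transcription factors, Stat2, the ISGF3 subunit, was higher in Cat-Tg than in WT post-tx in both cell types. In CD8, Stat2 stood at 68.1, 57.9 and 141 CPM in WT CD8 pre-tx as labelled, 9.21, 12 and 16.4 in WT CD8 post-tx, 10.2, 15.9 and 18.7 in Cat-Tg CD8 pre-tx and 53.5, 87.3 and 50.7 in Cat-Tg CD8 post-tx. The groups did not overlap in either genotype: WT was lower post-tx (log2 fold change -2.70 ± 0.49, adjusted p = 0.000965, with the standard error after ±) and Cat-Tg higher (log2 fold change 2.10 ± 0.48, adjusted p = 0.00997). In CD4, Stat2 stood at 25.8, 61.9 and 43.7 CPM in WT CD4 pre-tx as labelled, 54.6, 43.5 and 42.8 in WT CD4 post-tx, 24.1, 27.6 and 12.7 in Cat-Tg CD4 pre-tx and 107, 132 and 128 in Cat-Tg CD4 post-tx. All 3 Cat-Tg post-tx libraries lay above every other CD4 library (log2 fold change 2.19 ± 0.35, adjusted p = 0.000233), while the WT groups overlapped (log2 fold change 0.24 ± 0.34, adjusted p = 0.616). The genotype difference post-tx was log2 fold change 1.15 ± 0.34, adjusted p = 0.0414 in CD4 and log2 fold change 2.26 ± 0.48, adjusted p = 0.036 in CD8.

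Irf7, the factor that drives transcription of interferon alpha genes, was at 212, 215 and 151 CPM in WT CD4 pre-tx as labelled, 164, 112 and 159 in WT CD4 post-tx, 77.7, 57.1 and 64.5 in Cat-Tg CD4 pre-tx and 438, 370 and 351 in Cat-Tg CD4 post-tx. The Cat-Tg post-tx libraries were the highest of the 12 and the Cat-Tg pre-tx libraries the lowest, which gave log2 fold change 2.22 ± 0.24, adjusted p = 1.31e-05 in Cat-Tg and log2 fold change -0.28 ± 0.23, adjusted p = 0.379 in WT. At each time apart, Irf7 was lower in Cat-Tg pre-tx (log2 fold change -1.31 ± 0.24, adjusted p = 0.00112) and higher in Cat-Tg post-tx (log2 fold change 1.20 ± 0.23, adjusted p = 0.00514). In CD8 its values were 183, 123 and 160 CPM in WT CD8 pre-tx as labelled, 51.2, 309 and 170 in WT CD8 post-tx, 123, 71.8 and 71.3 in Cat-Tg CD8 pre-tx and 167, 209 and 239 in Cat-Tg CD8 post-tx, where WT post-tx spread from 51.2 to 309 and no CD8 comparison made it a DEG. Irf1, the factor induced through a GAS, was at 327, 389 and 316 CPM in WT CD4 pre-tx as labelled, 383, 307 and 381 in WT CD4 post-tx, 262, 201 and 311 in Cat-Tg CD4 pre-tx and 385, 614 and 577 in Cat-Tg CD4 post-tx. Its CD8 values were 233, 318 and 254 CPM in WT CD8 pre-tx as labelled, 249, 318 and 351 in WT CD8 post-tx, 544, 268 and 505 in Cat-Tg CD8 pre-tx and 521, 599 and 509 in Cat-Tg CD8 post-tx. No contrast made Irf1 a DEG, although Cat-Tg CD4 post-tx lay above Cat-Tg pre-tx without overlap (log2 fold change 0.69 ± 0.23, adjusted p = 0.0249). Irf9, the DNA-binding subunit of ISGF3, was a DEG in none of the 12 comparisons, with log2 fold changes from -0.85 to 0.94.

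Of the sensors, Zbp1, which binds Z-form nucleic acid and can trigger necroptosis, was a DEG, higher post-tx, in 3 of the 4 comparisons. In all 4 its post-tx libraries lay above its pre-tx ones. In CD8, Zbp1 was at 52.7, 49.2 and 68.9 CPM in WT CD8 pre-tx as labelled, 338, 157 and 179 in WT CD8 post-tx, 90.3, 85.3 and 113 in Cat-Tg CD8 pre-tx and 175, 236 and 227 in Cat-Tg CD8 post-tx, and in both genotypes the post-tx libraries lay above the pre-tx ones (log2 fold change 2.10 ± 0.38, adjusted p = 0.000954 in WT and log2 fold change 1.16 ± 0.37, adjusted p = 0.0481 in Cat-Tg). In CD4, Zbp1 was at 74.4, 73.2 and 51.8 CPM in WT CD4 pre-tx as labelled, 155, 128 and 140 in WT CD4 post-tx, 73.7, 86.7 and 99.1 in Cat-Tg CD4 pre-tx and 155, 161 and 178 in Cat-Tg CD4 post-tx, where WT rose (log2 fold change 1.22 ± 0.23, adjusted p = 0.00139) and Cat-Tg stayed under 2 fold (log2 fold change 0.60 ± 0.23, adjusted p = 0.044). Ddx58, which encodes the RNA sensor RIG-I, was at 104, 62.9 and 114 CPM in WT CD8 pre-tx as labelled, 23, 26.1 and 22.1 in WT CD8 post-tx, 41.4, 32.3 and 45 in Cat-Tg CD8 pre-tx and 67.5, 68 and 40.9 in Cat-Tg CD8 post-tx. It fell in WT (log2 fold change -1.87 ± 0.41, adjusted p = 0.00355), where the groups were far apart, and the Cat-Tg groups overlapped (log2 fold change 0.58 ± 0.39, adjusted p = 0.297). In CD4, Ddx58 was at 49.1, 40.4 and 61.2 CPM in WT CD4 pre-tx as labelled, 61.1, 74.9 and 79.2 in WT CD4 post-tx, 44.2, 30.9 and 38 in Cat-Tg CD4 pre-tx and 40, 94 and 117 in Cat-Tg CD4 post-tx, with overlap in both genotypes. Eif2ak2, the kinase PKR that halts translation on double-stranded RNA, had the lowest change of the 39 in Cat-Tg CD4 (log2 fold change -0.95 ± 0.39, adjusted p = 0.0581). Its CD4 values were 29.9, 17.1 and 41.6 CPM in WT CD4 pre-tx as labelled, 22.8, 32.2 and 23.8 in WT CD4 post-tx, 27.3, 35.9 and 21.9 in Cat-Tg CD4 pre-tx and 10.2, 22 and 23.1 in Cat-Tg CD4 post-tx. Its CD8 values, 18.6, 26 and 30.1 CPM in WT CD8 pre-tx as labelled, 21.4, 11.3 and 14.1 in WT CD8 post-tx, 17.1, 38.1 and 15.2 in Cat-Tg CD8 pre-tx and 13.6, 7.73 and 15.9 in Cat-Tg CD8 post-tx, overlapped as well, and it was a DEG in no comparison. Of the other RNA helicases, Ifih1 (MDA5) rose in CD4 in both genotypes (3.02, adjusted p = 0.000198 in WT and 1.34, adjusted p = 0.0185 in Cat-Tg), and Dhx58 (LGP2) in Cat-Tg (1.84, adjusted p = 0.000279).

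Ifitm3, a membrane protein that keeps viruses from fusing with the cell, had the largest rise among the 17 antiviral genes in Cat-Tg CD4 and in Cat-Tg CD8. In CD4, Ifitm3 was at 297, 156 and 137 CPM in WT CD4 pre-tx as labelled, 314, 209 and 327 in WT CD4 post-tx, 23.4, 14.6 and 22.4 in Cat-Tg CD4 pre-tx and 559, 539 and 614 in Cat-Tg CD4 post-tx. The 3 Cat-Tg pre-tx libraries were the lowest of the 12 and the 3 Cat-Tg post-tx libraries the highest (log2 fold change 4.50 ± 0.33, adjusted p = 3.82e-07), whereas WT groups overlapped (log2 fold change 0.66 ± 0.29, adjusted p = 0.107). Post-tx the genotypes did not overlap, but the difference stayed under 2 fold (log2 fold change 0.79 ± 0.29, adjusted p = 0.0976). In CD8, Ifitm3 was at 112, 120 and 101 CPM in WT CD8 pre-tx as labelled, 44.2, 144 and 66.4 in WT CD8 post-tx, 43.4, 14.8 and 5.65 in Cat-Tg CD8 pre-tx and 155, 174 and 191 in Cat-Tg CD8 post-tx. It rose in Cat-Tg (log2 fold change 3.04 ± 0.63, adjusted p = 0.00598), from pre-tx values that spread from 5.65 to 43.4 CPM.

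Rsad2 encodes viperin, which makes a chain-terminating nucleotide, and its neighbour Cmpk2 encodes a nucleotide kinase. In CD4, Rsad2 was at 8.25, 13.9 and 6.92 CPM in WT CD4 pre-tx as labelled, 6.03, 9.53 and 7.78 in WT CD4 post-tx, 1.73, 3.92 and 6.66 in Cat-Tg CD4 pre-tx and 45.5, 48.3 and 27.8 in Cat-Tg CD4 post-tx. Every Cat-Tg post-tx library lay above every other CD4 library, with log2 fold change 2.98 ± 0.52, adjusted p = 0.000443 against Cat-Tg pre-tx and log2 fold change 2.15 ± 0.50, adjusted p = 0.0123 against WT post-tx. In CD8, Rsad2 was at 34, 7.07 and 17.6 CPM in WT CD8 pre-tx as labelled, 1.02, 1.23 and 0.558 in WT CD8 post-tx, 12.5, 12.6 and 2.39 in Cat-Tg CD8 pre-tx and 8.35, 16.5 and 2.67 in Cat-Tg CD8 post-tx. All 3 WT post-tx libraries were at 1.23 CPM or below (log2 fold change -4.30 ± 0.92, adjusted p = 0.00339), and the Cat-Tg groups overlapped. Cmpk2 rose in Cat-Tg CD4 as well (log2 fold change 3.08 ± 0.42, adjusted p = 6.41e-05).

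Ifit2, which binds RNA and blocks its translation, went against these genes. In CD4, Ifit2 was at 3.95, 4.66 and 5.62 CPM in WT CD4 pre-tx as labelled, 15.9, 20.7 and 11.1 in WT CD4 post-tx, 22, 25.3 and 37.7 in Cat-Tg CD4 pre-tx and 9.15, 28.6 and 22.5 in Cat-Tg CD4 post-tx. It was lowest in the libraries with the label WT pre-tx, rose in WT (log2 fold change 1.90 ± 0.45, adjusted p = 0.00578) and overlapped between the Cat-Tg times (log2 fold change -0.83 ± 0.43, adjusted p = 0.124). In CD8, Ifit2 was at 9.1, 10.9 and 7.87 CPM in WT CD8 pre-tx as labelled, 13.2, 0.245 and 10.1 in WT CD8 post-tx, 34.1, 25 and 27.5 in Cat-Tg CD8 pre-tx and 17.8, 5.79 and 9.12 in Cat-Tg CD8 post-tx, and WT post-tx replicate 2 held only 4 counts. Ifi35, a cytoplasmic partner of NMI, moved in WT CD8 alone among the 4 post-tx minus pre-tx comparisons. Its CD8 values were 125, 112 and 73.7 CPM in WT CD8 pre-tx as labelled, 466, 565 and 358 in WT CD8 post-tx, 196, 127 and 273 in Cat-Tg CD8 pre-tx and 223, 265 and 235 in Cat-Tg CD8 post-tx, where the 3 WT post-tx libraries were the highest (log2 fold change 2.28 ± 0.38, adjusted p = 0.00047). In CD4 they were 166, 161 and 113 CPM in WT CD4 pre-tx as labelled, 140, 100 and 126 in WT CD4 post-tx, 86.7, 91.5 and 118 in Cat-Tg CD4 pre-tx and 160, 119 and 158 in Cat-Tg CD4 post-tx, within a narrow range. Ifit3 fell in WT CD8 (log2 fold change -2.65 ± 0.57, adjusted p = 0.00352), but its reads can be shared with its near copy Ifit3b, so its value is uncertain, as is that of Trim30a among its neighbouring copies. Mx1, a GTPase that blocks influenza virus and is broken in C57BL/6 mice, was a DEG in no comparison, nor were Usp18 and Ifit1. Isg15, the ubiquitin-like modifier, rose in Cat-Tg CD4 alone (log2 fold change 1.48 ± 0.39, adjusted p = 0.00709).

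The OAS enzymes make 2′,5′-oligoadenylates that activate RNase L. Oas3 was at 40.7, 57.3 and 51.3 CPM in WT CD4 pre-tx as labelled, 235, 150 and 155 in WT CD4 post-tx, 14.9, 14.2 and 12.1 in Cat-Tg CD4 pre-tx and 328, 238 and 290 in Cat-Tg CD4 post-tx. It rose in both genotypes without overlap, more in Cat-Tg (log2 fold change 4.05 ± 0.28, adjusted p = 2.33e-07) than in WT (log2 fold change 1.99 ± 0.26, adjusted p = 5.04e-05), and the interaction was log2 fold change 2.06 ± 0.36, adjusted p = 0.00115. In CD8, Oas3 was at 53.4, 31 and 44.7 CPM in WT CD8 pre-tx as labelled, 16.6, 188 and 48.1 in WT CD8 post-tx, 11.1, 16.1 and 10.7 in Cat-Tg CD8 pre-tx and 248, 246 and 264 in Cat-Tg CD8 post-tx. Cat-Tg post-tx was above every Cat-Tg pre-tx library (log2 fold change 4.34 ± 0.70, adjusted p = 0.00115), and WT post-tx spread from 16.6 to 188 CPM, with the highest value in replicate 2.

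Oas2 had the lowest median TPM of the 39. In CD4, Oas2 was at 0.688, 7.22 and 3.53 CPM in WT CD4 pre-tx as labelled, 8.82, 5.21 and 5.95 in WT CD4 post-tx, 1.05, 0.513 and 1.03 in Cat-Tg CD4 pre-tx and 14.7, 33.5 and 37.2 in Cat-Tg CD4 post-tx, with Cat-Tg post-tx the highest and Cat-Tg pre-tx at 1.05 CPM or below (log2 fold change 4.69 ± 0.74, adjusted p = 0.000201). In CD8, Oas2 was at 14.7, 4.19 and 14.8 CPM in WT CD8 pre-tx as labelled, 0.0678, 0.797 and 0.16 in WT CD8 post-tx, 2.04, 2.44 and 1.93 in Cat-Tg CD8 pre-tx and 1.99, 3.66 and 5.19 in Cat-Tg CD8 post-tx. WT post-tx held only 1 to 13 counts a library, so that its fall (log2 fold change -4.93 ± 1.02, adjusted p = 0.00256) depends on few reads. Oas1a, which shares reads with the near copy Oas1g, was at 47.7, 26.9 and 37.4 CPM in WT CD8 pre-tx as labelled, 168, 165 and 126 in WT CD8 post-tx, 32.3, 10.8 and 17.8 in Cat-Tg CD8 pre-tx and 51.1, 63.2 and 74.3 in Cat-Tg CD8 post-tx. It rose there in both genotypes (log2 fold change 2.14 ± 0.45, adjusted p = 0.00297 in WT and log2 fold change 1.65 ± 0.45, adjusted p = 0.0244 in Cat-Tg). In CD4 it was at 78.6, 69.6 and 48.5 CPM in WT CD4 pre-tx as labelled, 92.7, 66.7 and 94.1 in WT CD4 post-tx, 22.1, 24.1 and 35.6 in Cat-Tg CD4 pre-tx and 83.6, 93.1 and 110 in Cat-Tg CD4 post-tx and rose in Cat-Tg (log2 fold change 1.48 ± 0.28, adjusted p = 0.000863).

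Oasl1, a relative of the OAS enzymes that represses translation of Irf7, reversed between the genotypes in CD4, with the WT fall measured from libraries that stood apart from their label. In CD4, Oasl1 was at 38.7, 40.4 and 22.2 CPM in WT CD4 pre-tx as labelled, 5.44, 7.19 and 3.32 in WT CD4 post-tx, 2.17, 0.233 and 3.28 in Cat-Tg CD4 pre-tx and 14.4, 13 and 10.2 in Cat-Tg CD4 post-tx. WT fell from values of at least 22.2 to at most 7.19 CPM (log2 fold change -2.51 ± 0.64, adjusted p = 0.00942), and Cat-Tg rose from at most 3.28 to at least 10.2 CPM (log2 fold change 2.39 ± 0.64, adjusted p = 0.0079). The interaction was log2 fold change 4.90 ± 0.91, adjusted p = 0.0018. In CD8, Oasl1 was at 21.9, 14 and 18 CPM in WT CD8 pre-tx as labelled, 0.474, 14.3 and 2.83 in WT CD8 post-tx, 0.249, 3.08 and 0.608 in Cat-Tg CD8 pre-tx and 2.97, 7.76 and 3.41 in Cat-Tg CD8 post-tx, and only the pre-tx genotype difference passed (log2 fold change -3.75 ± 1.13, adjusted p = 0.0498). Oasl2 rose in Cat-Tg CD4 (log2 fold change 3.07 ± 0.51, adjusted p = 0.000305). The plot of single libraries shows these patterns.

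**Figure D4:**
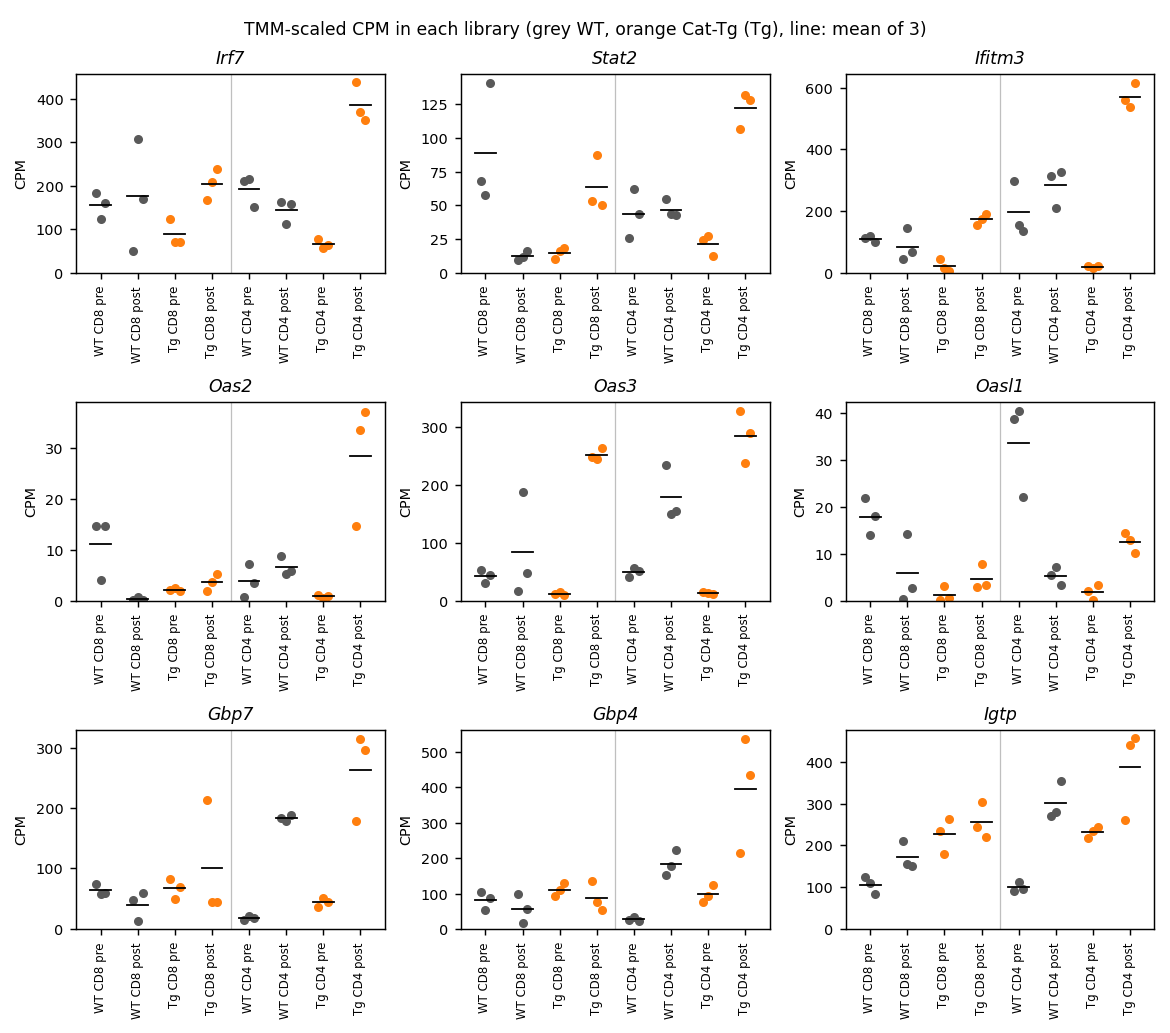
CPM in each of the 24 libraries for members that the text names, with grey points for WT, orange for Cat-Tg and a line at the mean of 3. Ifitm3 runs from 14.6 to 23.4 CPM in Cat-Tg CD4 pre-tx to 539 to 614 CPM post-tx, and Gbp7 is at 179 CPM or above in all 6 CD4 post-tx libraries.

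The gamma induced GTPases rupture vacuoles that hold microbes and, in the IRG family, guide the GBPs to them. Gbp7 was at 15, 21.6 and 18.5 CPM in WT CD4 pre-tx as labelled, 184, 179 and 188 in WT CD4 post-tx, 36.8, 51.2 and 43.7 in Cat-Tg CD4 pre-tx and 179, 314 and 296 in Cat-Tg CD4 post-tx, where both genotypes' post-tx libraries were above all pre-tx ones (log2 fold change 3.46 ± 0.28, adjusted p = 5.17e-07 in WT and log2 fold change 2.25 ± 0.26, adjusted p = 2.06e-05 in Cat-Tg). The post-tx levels of the genotypes overlapped, and pre-tx Cat-Tg was higher (log2 fold change 1.49 ± 0.26, adjusted p = 0.000817). In CD8, Gbp7 was at 74.1, 58 and 59.4 CPM in WT CD8 pre-tx as labelled, 47.6, 12.7 and 60.2 in WT CD8 post-tx, 82.3, 50 and 69.4 in Cat-Tg CD8 pre-tx and 214, 44.4 and 43.8 in Cat-Tg CD8 post-tx, with 1 high Cat-Tg post-tx library and overlap throughout. Igtp, also called Irgm3, was at 91.3, 111 and 95 CPM in WT CD4 pre-tx as labelled, 270, 279 and 353 in WT CD4 post-tx, 217, 234 and 245 in Cat-Tg CD4 pre-tx and 261, 441 and 457 in Cat-Tg CD4 post-tx. It rose in WT (log2 fold change 1.73 ± 0.23, adjusted p = 8.03e-05), while in Cat-Tg it started higher and stayed under 2 fold (log2 fold change 0.40 ± 0.23, adjusted p = 0.16). Its CD8 values were 124, 109 and 82.7 CPM in WT CD8 pre-tx as labelled, 210, 156 and 150 in WT CD8 post-tx, 235, 180 and 263 in Cat-Tg CD8 pre-tx and 244, 303 and 219 in Cat-Tg CD8 post-tx, higher in Cat-Tg pre-tx (log2 fold change 1.13 ± 0.33, adjusted p = 0.046). Reads of Igtp can be shared with Irgm2, and reads within the GBP family among its members.

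Irgm1, which regulates the other IRGs and protects activated T cells from death, was at 96.4, 87.7 and 71.5 CPM in WT CD4 pre-tx as labelled, 182, 133 and 194 in WT CD4 post-tx, 84.7, 126 and 142 in Cat-Tg CD4 pre-tx and 104, 375 and 366 in Cat-Tg CD4 post-tx. It rose in WT (log2 fold change 1.12 ± 0.37, adjusted p = 0.0357), and the Cat-Tg groups overlapped, with post-tx replicate 1 at 104 CPM. In CD8, Irgm1 was at 125, 53.1 and 132 CPM in WT CD8 pre-tx as labelled, 65.9, 41.7 and 57 in WT CD8 post-tx, 136, 109 and 139 in Cat-Tg CD8 pre-tx and 143, 149 and 80.1 in Cat-Tg CD8 post-tx, with no DEG. Iigp1 (Irga6), the IRG that loads on the parasite vacuole, was at 10.5, 5.13 and 13.6 CPM in WT CD4 pre-tx as labelled, 21.4, 39.6 and 56 in WT CD4 post-tx, 25.5, 52 and 28.3 in Cat-Tg CD4 pre-tx and 47.1, 166 and 158 in Cat-Tg CD4 post-tx. It rose in WT (log2 fold change 2.13 ± 0.49, adjusted p = 0.00532) and, with overlapping libraries, in Cat-Tg (log2 fold change 1.47 ± 0.48, adjusted p = 0.0207). In CD8, Iigp1 was at 10.4, 4.98 and 15.4 CPM in WT CD8 pre-tx as labelled, 7.59, 4.54 and 3.91 in WT CD8 post-tx, 17.3, 26.5 and 15.4 in Cat-Tg CD8 pre-tx and 4.11, 3.41 and 4.25 in Cat-Tg CD8 post-tx, so that Cat-Tg fell to 4.25 CPM or below in all 3 post-tx libraries (log2 fold change -2.31 ± 0.61, adjusted p = 0.022). Cat-Tg CD8 post-tx was also far under Cat-Tg CD4 post-tx (log2 fold change -4.98 ± 0.59, adjusted p = 6.23e-06).

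Gbp5, which activates inflammasomes, did not follow the other GBPs. Its CD4 values were 48.8, 23.7 and 42.7 CPM in WT CD4 pre-tx as labelled, 15.6, 33.2 and 17.7 in WT CD4 post-tx, 14, 16.1 and 12.2 in Cat-Tg CD4 pre-tx and 24.3, 15.8 and 17.3 in Cat-Tg CD4 post-tx, and its CD8 values 14.9, 66.2 and 44 CPM in WT CD8 pre-tx as labelled, 23.2, 25.4 and 15.7 in WT CD8 post-tx, 15.5, 11.1 and 15.2 in Cat-Tg CD8 pre-tx and 11.5, 4.43 and 9.82 in Cat-Tg CD8 post-tx. Post-tx and pre-tx overlapped in all 4 comparisons, and the pre-tx difference in CD4 was log2 fold change -1.21 ± 0.39, adjusted p = 0.0371. Gbp2, Gbp3 and Gbp4 rose in WT CD4 (2.07, adjusted p = 0.000269 for Gbp2, 2.16, adjusted p = 0.00132 for Gbp3 and 2.87, adjusted p = 1.77e-05 for Gbp4). In Cat-Tg CD4, Gbp2 rose by 2.21, adjusted p = 0.000113 and Gbp4 by 1.68, adjusted p = 0.000825, and Gbp3 was at 0.74, adjusted p = 0.134. The median log2 CPM of the 8 GTPases was 4.82 to 5.03 in the libraries with the label WT CD4 pre-tx, 7.08 to 7.58 in WT CD4 post-tx, 5.37 to 5.80 in Cat-Tg CD4 pre-tx and 6.80 to 8.28 in Cat-Tg CD4 post-tx.

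Upstream of these genes, 1 of 8 interferon ligands passed the filter on low counts, Ifng. Ifnb1, which encodes interferon beta, did not and was not tested. It was at 0.249, 0.728 and 0.572 CPM in Cat-Tg CD8 pre-tx (5 to 17 counts a library), at 0.339 CPM or below (0 to 8 counts) in the other CD8 libraries, at 2 counts or below in the CD4 pre-tx libraries and at 0 in all 6 CD4 post-tx libraries. It was named after its values were seen. Ifng was at 4.67, 0.786 and 2.91 CPM in WT CD8 pre-tx as labelled, 59.7, 21.9 and 28.4 in WT CD8 post-tx, 1.35, 0.471 and 0.143 in Cat-Tg CD8 pre-tx and 27.2, 28.4 and 16.4 in Cat-Tg CD8 post-tx and rose in both genotypes (log2 fold change 3.80 ± 0.82, adjusted p = 0.00354 in WT and log2 fold change 5.22 ± 0.89, adjusted p = 0.00168 in Cat-Tg). In CD4, Ifng was at 0.344, 0.95 and 0.249 CPM in WT CD4 pre-tx as labelled, 72.5, 55.8 and 73 in WT CD4 post-tx, 2.63, 1.73 and 2.79 in Cat-Tg CD4 pre-tx and 18.3, 23.4 and 29.6 in Cat-Tg CD4 post-tx. It rose more in WT (log2 fold change 7.13 ± 0.52, adjusted p = 1.96e-07) than in Cat-Tg (log2 fold change 2.98 ± 0.42, adjusted p = 8.23e-05), with an interaction of log2 fold change -4.14 ± 0.60, adjusted p = 0.000322, and post-tx it was lower in Cat-Tg (log2 fold change -1.73 ± 0.39, adjusted p = 0.0112). Pre-tx it was higher in Cat-Tg than in the libraries with the label WT CD4 pre-tx (log2 fold change 2.42 ± 0.45, adjusted p = 0.00149). Those libraries, which stood apart from their label, held only 5 to 20 counts of Ifng each, and the WT rise and the interaction rest on them. In CD4 post-tx, 0 of the 8 GTPases were lower in Cat-Tg by edgeR, limma-voom or DESeq2, and 0 at an unadjusted p under 0.05. By edgeR 6.40% of all genes were lower there, so that 0 of 8 is near that share.

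The receptor, kinase and inhibitor genes other than Ifnar1, Ifngr1 and Socs1 were named after their values were seen. Ifnar1, a chain of the receptor that interferon alpha and beta share, was at 45.1, 79.4 and 78.4 CPM in WT CD4 pre-tx as labelled, 94.5, 57.7 and 104 in WT CD4 post-tx, 71.4, 39.3 and 102 in Cat-Tg CD4 pre-tx and 66.4, 96.9 and 86 in Cat-Tg CD4 post-tx and was a DEG in none of the 4 post-tx minus pre-tx comparisons. Its CD8 values were 71.9, 92.3 and 103 CPM in WT CD8 pre-tx as labelled, 60.6, 28 and 79.7 in WT CD8 post-tx, 158, 57.8 and 150 in Cat-Tg CD8 pre-tx and 109, 135 and 90.2 in Cat-Tg CD8 post-tx. Ifngr1, the chain that binds interferon gamma, was at 69.8, 124 and 95.6 CPM in WT CD4 pre-tx as labelled, 301, 391 and 459 in WT CD4 post-tx, 137, 102 and 124 in Cat-Tg CD4 pre-tx and 378, 546 and 517 in Cat-Tg CD4 post-tx. Its CD8 values were 188, 95.4 and 167 CPM in WT CD8 pre-tx as labelled, 303, 190 and 315 in WT CD8 post-tx, 261, 149 and 194 in Cat-Tg CD8 pre-tx and 603, 902 and 495 in Cat-Tg CD8 post-tx, with Cat-Tg post-tx the highest. Of 4 receptor subunits, Ifngr1 rose in both CD4 comparisons (2.12, adjusted p = 3.31e-05 in WT and 1.67, adjusted p = 0.00018 in Cat-Tg) and Ifngr2 fell in them (-3.58, adjusted p = 1.27e-05 and -1.30, adjusted p = 0.01). In CD8, Ifngr2 fell in both genotypes (-5.20, adjusted p = 3.1e-05 and -5.33, adjusted p = 7.66e-05), Ifnar2 fell in both (-2.25, adjusted p = 0.00271 and -1.49, adjusted p = 0.0416), and Ifngr1 rose in Cat-Tg (1.73, adjusted p = 0.0101). Of 3 receptor kinases, Jak2 and Jak1 rose in WT CD4 (2.18, adjusted p = 0.00108 for Jak2 and 1.11, adjusted p = 0.0268 for Jak1), and Tyk2 in both Cat-Tg comparisons (1.62, adjusted p = 0.0483 in CD8 and 1.11, adjusted p = 0.00557 in CD4). Of 5 feedback inhibitors, Socs1, which shuts off JAK kinases, was at 21, 22.1 and 22.3 CPM in WT CD4 pre-tx as labelled, 56.4, 44.2 and 67.5 in WT CD4 post-tx, 33.9, 22.7 and 21.1 in Cat-Tg CD4 pre-tx and 213, 62.1 and 78.9 in Cat-Tg CD4 post-tx. It rose in both genotypes there (1.49, adjusted p = 0.0124 in WT and 1.88, adjusted p = 0.00186 in Cat-Tg), and its CD8 values were 21.1, 28.1 and 17.4 CPM in WT CD8 pre-tx as labelled, 13.5, 91.5 and 38.2 in WT CD8 post-tx, 30.5, 25.2 and 40.3 in Cat-Tg CD8 pre-tx and 37.3, 58.5 and 45.5 in Cat-Tg CD8 post-tx. Ptpn2 rose in WT CD4 (1.45, adjusted p = 0.0102) and fell in Cat-Tg CD4 (-1.04, adjusted p = 0.0303), and Pias1 and Irf2 fell in WT CD8 (-1.43, adjusted p = 0.0121 and -1.37, adjusted p = 0.0255).

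**Figure D5:**
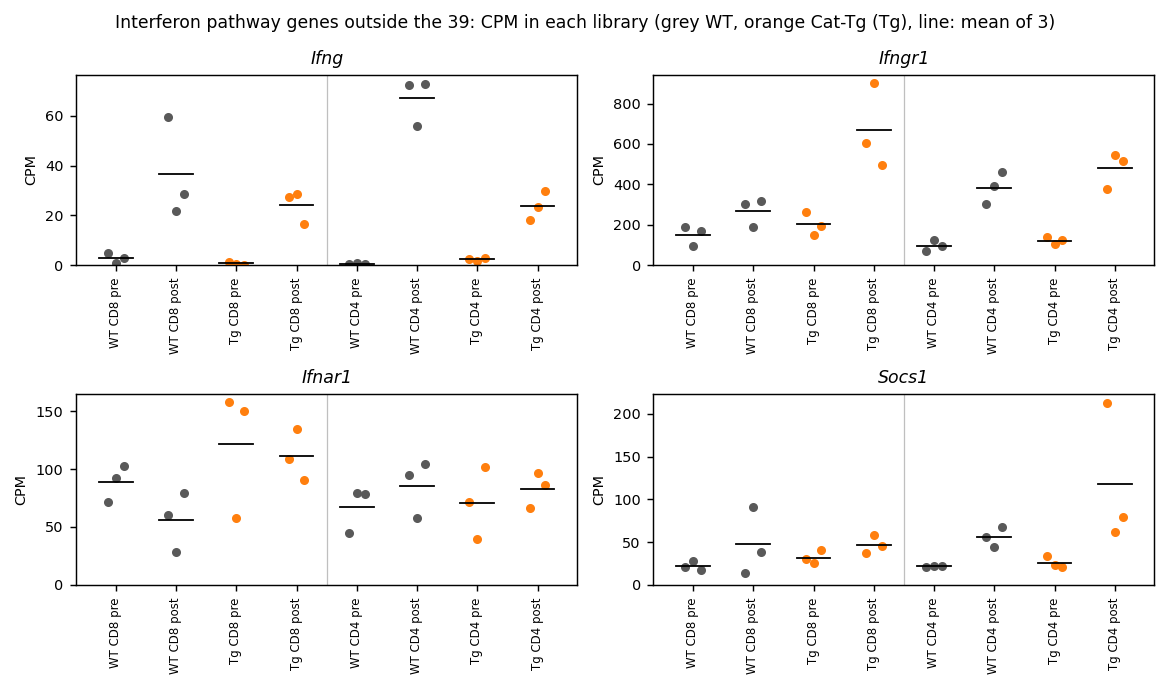
CPM in each of the 24 libraries for Ifng, Ifngr1, Ifnar1 and Socs1, with grey points for WT, orange for Cat-Tg and a line at the mean of 3. Ifng is higher in all 12 post-tx than in all 12 pre-tx libraries, and Ifngr1 is higher in all 6 CD4 post-tx than in all 6 CD4 pre-tx libraries.

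Genes of the same programs outside the 39 were read as lists. Of 10 further gamma induced GTPases, 9 rose in WT CD4 and 3 in Cat-Tg CD4 (Gbp11 by 4.45, adjusted p = 0.00316, Irgm2 by 1.82, adjusted p = 0.00109 and Gm12250 by 1.99, adjusted p = 0.00982), with medians of 2.03 and 0.81, where 13.1% and 13.2% of all genes rose. In CD8, Gbp9 and Tgtp1 fell in WT (-3.11, adjusted p = 0.00248 and -1.72, adjusted p = 0.0305) and Tgtp1 in Cat-Tg (-3.51, adjusted p = 0.00131), and these names too were chosen after their values were seen. Of 40 further interferon-stimulated genes, 13 rose and 1 fell in WT CD4, 12 rose and 3 fell in Cat-Tg CD4, 7 rose and 4 fell in WT CD8, and 10 rose and 3 fell in Cat-Tg CD8. The shares of all genes that rose and fell were 13.1% and 9.02%, 13.2% and 27.7%, 13.1% and 10.4%, and 8.72% and 5.23% in the same order, so that the counts in WT CD8 are near them. Post-tx, 0 of these 40 were DEGs between the genotypes by edgeR. Of all genes, 3.62% were higher and 6.40% lower in Cat-Tg CD4, and 1.10% and 0.570% in Cat-Tg CD8, so that 0 is near the shares in CD8. At an unadjusted p under 0.05, 5 of the 40 were higher and 2 lower in Cat-Tg CD4, and 7 higher and 1 lower in Cat-Tg CD8. In CD4 limma-voom called 1 of the 40 higher and DESeq2 1, and in CD8 they called 1 and 4. Of 7 other genes that interferon gamma induces, Ciita, the factor that switches on MHC class II genes and is active in B cells, fell in WT CD4 (-5.78, adjusted p = 4.07e-07). It also fell in both CD8 comparisons (-6.13, adjusted p = 9.6e-06 in WT and -4.09, adjusted p = 0.000265 in Cat-Tg). Ciita was higher in Cat-Tg than in WT CD4 post-tx (2.14, adjusted p = 0.00355) and lower in CD8 post-tx (-2.41, adjusted p = 0.0374). B cell markers are given above for each group, and their part in these differences was not tested. Cxcl10 and Cd274 rose in Cat-Tg CD4 (2.15, adjusted p = 0.00651 and 2.32, adjusted p = 0.0011), and Cd274 fell in WT CD8 (-2.61, adjusted p = 0.00266).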

How the data were processed

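Libraries were made with SMART-Seq and Nextera XT kits. The authors deposited, for each of the 24 libraries, the table that Kallisto 0.46.2 wrote, with an estimated count (reads shared out over 117497 mouse transcripts by pseudoalignment, not normalized) and a TPM value (that count per effective length, scaled to a fixed total) for each transcript, per the file headers. The submitters' processing notes name mm9, and the release of the index and the use of strand are not given in the sources used here.

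GENCODE M21 gave gene symbols for 116374 transcripts, which held 99.57% to 99.75% of the estimated counts of a library, and 1123 transcripts were left out. Counts were summed to 35817 genes, rounded and TMM-normalized. The paper's methods fit TPM with voom and limma. Here edgeR 4.0.16 (R 4.3.3, robust quasi-likelihood test) was used, since estimated counts were at hand, on the 12 libraries of a cell type and genes over 1 CPM in 3 or more of them (15960 in CD8, 17227 in CD4), and on all 24 libraries for CD8 against CD4 (19076 genes). Standard errors come from the F statistic. Post-tx minus pre-tx comparisons, genotype comparisons and interactions of a cell type share one fit and some share libraries. TPM served for levels between genes. Python 3.11.15 and pandas 2.3.3 made the summaries, and the fit was tested on simulated data.

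Members, lists and the rule for named genes were chosen with earlier results of these data known. The rule takes the 2 members of each role with the highest level, the highest and the lowest change in each post-tx minus pre-tx and each Cat-Tg minus WT comparison, and at most 4 members called in an interaction, by p. Values in every library are given for these 19 genes and, outside the 39, for Ifng, Ifnar1, Ifngr1 and Socs1. One further pathway gene of this rule is not reported here. By the authors' methods, 3 donors gave the pre-tx and 3 recipients the post-tx samples of a genotype, with both cell types sorted from every mouse, while the labels tie no library to a mouse. How many donors stood behind the recipients is not given in the sources used here. Whether the number of a replicate pairs samples is not given. Deviations of same-numbered libraries from their group means correlated at -0.252 to 0.198 over 10 comparisons, and in 0 of these was every pair over 0.1. Such correlations cannot settle whether CD8 and CD4 libraries with the same number came from the same mouse. A gene at 3 counts or below (0.0517 to 0.289 CPM) was taken as at the floor, and counting error alone is covered by it. Results were recomputed with DESeq2 1.42.0 and limma-voom (limma 3.58.1), with DESeq2 size factors in edgeR, no filter, counts from length-scaled TPM, a log2 fold threshold of 2, all 24 or only the 6 libraries, the replicate block, each library left out in turn and, chosen after seeing the data, no WT pre-tx libraries.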

Additional observations from a re-analysis of the deposited data

Results flagged for a closer look

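The change from pre-tx to post-tx differed between the genotypes, by the interaction term in edgeR, for 23 member and cell type pairs. In CD8+ T cells the difference (Cat-Tg minus WT, log2) was 4.81 for Stat2 (adjusted p = 0.000629), 2.45 for Ddx58 (adjusted p = 0.0116), 2.39 for Dhx58 (adjusted p = 0.0398), 3.30 for Ifitm3 (adjusted p = 0.0218) and 4.29 for Rsad2 (adjusted p = 0.0308). It was 5.71 for Oas2 (adjusted p = 0.0114), where WT post-tx had 1 to 13 counts a library, 3.25 for Oas3 (adjusted p = 0.0284) and -1.98 for Ifi35 (adjusted p = 0.0219). Of these CD8 members, Dhx58, Rsad2, Oas3 and Ifi35 lost their call in some of the refits given above.

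In CD4+ T cells the difference was 2.50 for Irf7 (adjusted p = 0.000165), 1.96 for Stat2 (adjusted p = 0.00999) and 2.08 for Dhx58 (adjusted p = 0.00299). Among the antiviral genes it was 3.84 for Ifitm3 (adjusted p = 2.97e-05), 1.55 for Isg20 (adjusted p = 0.0363), 3.16 for Rsad2 (adjusted p = 0.00539), 2.38 for Cmpk2 (adjusted p = 0.00753) and 1.82 for Bst2 (adjusted p = 0.0105), and it was -2.73 for Ifit2 (adjusted p = 0.00623). In the OAS family it was 3.76 for Oas2 (adjusted p = 0.0104), 2.06 for Oas3 (adjusted p = 0.00115), 4.90 for Oasl1 (adjusted p = 0.0018) and 3.26 for Oasl2 (adjusted p = 0.00394). In the GTPases it was -1.21 for Gbp7 (adjusted p = 0.0257) and -1.33 for Igtp (adjusted p = 0.00986). Of these CD4 members, Ifit2, Isg20, Cmpk2, Gbp7 and Igtp lost their call in some of the refits given above. The libraries labelled WT pre-tx, whose Cd4, Cd8a and B cell transcripts go against their labels, enter every one of these values, and the part of that was not tested.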

How the results depend on the processing

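Of 132 calls of a member in a comparison, 72 held in every fit that left out 1 library and in every other fit at the same fold threshold, and none reversed. Counts of called members that moved by over 1.5 times were these. With a log2 fold change of at least 2, the count went from 8 to 5 in Cat-Tg CD8 post-tx minus pre-tx, from 17 to 7 in WT CD4, from 21 to 12 in Cat-Tg CD4, from 17 to 6 in CD4 pre-tx Cat-Tg minus WT, from 4 to 1 in CD4 post-tx, from 17 to 7 in WT CD8 minus CD4 and from 8 to 5 in Cat-Tg CD8 minus CD4. In CD8 pre-tx Cat-Tg minus WT, 4 became 7 with limma-voom, 10 with DESeq2, 10 with all 24 libraries in 1 fit and 9 with only the 6 libraries compared. In CD8 post-tx, 1 became 6 with DESeq2, 2 with no filter, 5 with all 24 libraries and 0 with only the 6. In CD4 post-tx, 4 became 8 with limma-voom, 9 with DESeq2, 8 with length-scaled TPM, 1 with all 24 libraries and 7 without the WT pre-tx libraries, a setting chosen after seeing the data. WT CD4 post-tx minus pre-tx had 11 with all 24 libraries, WT CD8 minus CD4 had 7 with only the 6, and Cat-Tg CD8 minus CD4 had 5 with no filter. The cause was not tested.

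Leaving out 1 library gave 3 to 7 called members in Cat-Tg CD8 post-tx minus pre-tx, 1 to 3 in CD8 pre-tx, 0 to 3 in CD8 post-tx, 1 to 6 in CD4 post-tx, 4 to 11 in the CD8 interaction and 2 to 7 in Cat-Tg CD8 minus CD4. Without the WT pre-tx libraries Cat-Tg post-tx minus pre-tx had 6 in CD8 and 29 in CD4. With the replicate block 127 of the 132 calls stayed, and the counts were 10, 7, 17 and 21 for post-tx minus pre-tx in WT CD8, Cat-Tg CD8, WT CD4 and Cat-Tg CD4, and 18 and 8 for CD8 minus CD4 in WT and Cat-Tg, where both cell types came from the same mice but the labels tie no number to a mouse.

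Scaling moved the median of all genes in Cat-Tg CD4 post-tx minus pre-tx from -0.38 (TMM) to -0.15 (size factors) and -0.10 (length-scaled TPM), and in the CD4 interaction from -0.55 to -0.21 and -0.10. The medians of the OAS family kept their sign under each scaling, and those of the GTPases did outside Cat-Tg CD8 (0.07, 0.00 with size factors). Few counts limit some members, such as Oas2 in WT CD8 post-tx, with 1 to 13 counts a library. Those libraries held 18184813 to 32657005 estimated counts in all.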
